A study of Sus scrofa with 8 samples.

Results

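The genes described here are 40 autophagy and lysosome genes, chosen by symbol: the machinery that builds autophagosomes, lysosomal enzymes and membrane proteins, and the receptors and adaptors that sort enzymes to the lysosome. All 40 symbols were found once each among the 30550 genes of the deposited table. RNA from the right ventricle of pigs was sequenced in a study that models arrhythmogenic cardiomyopathy, a heritable disease of heart muscle. One group carries a heterozygous knockout of PKP2, written PKP+/- in the protocol and called PKP2_het here, with 4 libraries, and the other is wild type (WT), also with 4 libraries. The product of PKP2, plakophilin 2, is part of the desmosomes that hold heart muscle cells together. The labels give no treatment, age, sex or litter, no description of how the allele was made, and no statement that each library came from a different animal, so each p-value is set against a spread between libraries that may be technical.

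In autophagy, a cell wraps part of its own content in a double membrane, the autophagosome, which then fuses with a lysosome. The ULK1 kinase complex and a lipid kinase complex that holds beclin 1 start the membrane, and ubiquitin-like conjugation reactions attach LC3 and GABARAP proteins to it. Newly made lysosomal enzymes reach the lysosome through mannose 6-phosphate receptors and sortilin, which are loaded into carriers at the trans-Golgi network by adaptors such as the GGA proteins. Heart muscle relies on this system: inherited loss of LAMP2, GAA or GLA causes Danon, Pompe and Fabry disease, each of which affects the heart.

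Levels are given in FPKM (fragments relative to the length of the gene and the size of the library), so they can be compared between genes. The fragments recovered from these values numbered 23637697 to 31313628 per library. PKP2 itself stood at 52.9, 62.2, 61.1 and 72.8 FPKM in WT and at 45.4, 40.7, 24.6 and 45.9 FPKM in PKP2_het, here and below in the order of replicates 1 to 4. No PKP2_het library reached the lowest WT library (two-sided exact permutation p = 0.0286, the smallest that 70 relabellings can give). In the fit across all genes PKP2 was not called, with a log2 fold change of -0.69 (limma adjusted p = 0.164), or -0.48 without PKP2_het replicate 3 (limma adjusted p = 0.0732). The cell type label reads cardiomyocytes, and the heart muscle marker MYL2 was at 5944 FPKM or more in every library. Markers of other cells were also present, with the summed level of 8 endothelial markers at 210.0 to 495 FPKM, so the libraries are described as tissue. PKP2_het replicate 3 stood apart before any gene was compared: 52.1% of its fragments came from the mitochondrial genome, against 21.1% to 37.6% in the other 7 libraries. Log2 fold changes that moved by over 1.5 times without it are given both ways.

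In WT tissue the mean levels of the members ran from 0.213 to 171 FPKM. CTSD, an aspartic protease of the lysosome, had the highest WT mean at 171 ± 32.4 FPKM (SD, n = 4), followed by GABARAP at 155 ± 9.44 FPKM and the cargo receptor SQSTM1 (p62) at 132 ± 25.0 FPKM. Libraries of neighbours overlapped all the way down this order from CTSD to MAP1LC3B, in ninth place, at 57.4 ± 3.93 FPKM. In all, 9 members had a WT mean over 50 FPKM, 17 lay between 10 and 50, 13 between 1 and 10, and 1 under 1 FPKM. The low end held the conjugation enzyme ATG7 at 1.77 ± 0.176 FPKM, GLA at 1.90 ± 0.330 FPKM and the cholesterol transporter NPC1 at 2.46 ± 0.274 FPKM. The row named CTSL was the member under 1 FPKM, at 0.129 to 0.327 FPKM in WT. Another row, named CTSV but annotated as pig procathepsin L, was at 22.1 to 28.2 FPKM in WT. Among the 39 tested members the median coefficient of variation between WT libraries was 9.21%, against 11.6% over all genes tested.

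**Figure D1:**
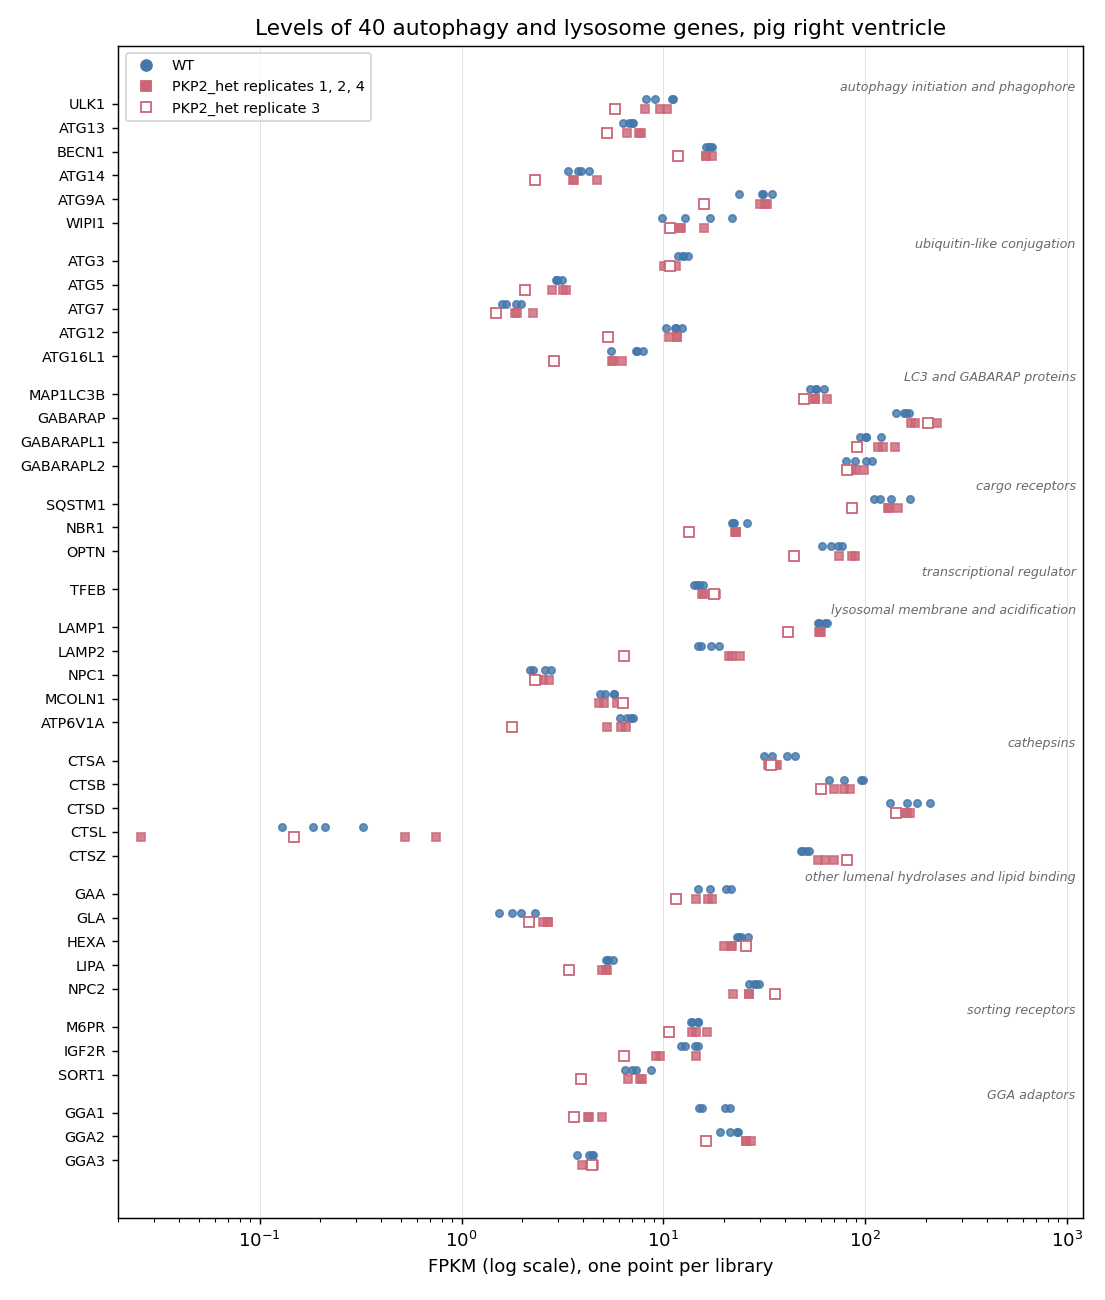
Levels of the 40 genes in FPKM on a log axis, one point per library, grouped by role; circles are WT, filled squares PKP2_het replicates 1, 2 and 4, and open squares PKP2_het replicate 3. GGA1 is the gene whose groups lie far apart, at 15.0 to 21.3 FPKM in WT and 3.61 to 4.96 FPKM in PKP2_het, and the open square is the lowest point for most genes.

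A gene was compared if 4 or more of the 8 libraries had 1 FPKM or more, which left out CTSL and kept 39 members. GGA1 fell in PKP2_het, and no other member passed the threshold (limma, Benjamini-Hochberg adjusted p under 0.05 over 10757 genes). Thus 1 of 39 members was called, or 2.56%, where 1.86% of all genes tested were. It was a call for a lower level, as for 0.707% of all genes, and 0 of 39 members were called higher, as for 1.15%. These shares are descriptions, since the members were chosen with earlier results of these data known. Before adjustment 6 members had a limma p under 0.05, which is 15.4% and near the 12.8% of all genes. CTSZ, GLA and GABARAP were higher (6.88% of all genes) and GGA1, IGF2R and ATG3 lower (5.96%). Libraries of PKP2_het and WT did not overlap for 4 members, which is 10.3% and near the 9.19% of all genes. CTSZ and GABARAP were higher in that count (4.86% of all genes) and GGA1 and ATG3 lower (4.33%).

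Direction over the whole list, and over all genes tested, depended on PKP2_het replicate 3. With all libraries 28 of 39 log2 fold changes were negative and 11 positive, with a median of -0.11. Over all genes tested 5846 of 10757 were negative, with a median of -0.022. Without PKP2_het replicate 3, 1 of 39 members was called, GGA1, and lower, where 2.92% of all genes were called in either direction, 1.81% higher and 1.11% lower. In that fit 7 members had an unadjusted limma p under 0.05, beside 16.6% of all genes: GABARAPL1, LAMP2, CTSZ, GLA and GGA2 were higher (9.08%) and ATG3 and GGA1 lower (7.48%). Of the members' log2 fold changes 20 were negative and 19 positive, with a median of -0.010. Over all genes 5220 of 10757 were negative, with a median of 0.0067. PKP2_het replicate 3 was the lowest of the 8 libraries for 25 of 39 members, whereas it was the lowest for 36.3% of all genes tested. Relative to the mean of the other 3 PKP2_het libraries, its members stood at a median of 71.8%, from 28.5% for LAMP2 and 29.6% for ATP6V1A up to 142% for NPC2. Over all genes tested that median was 93.4%. The 39 members shared with all genes a lower percentage for longer gene models, with Spearman's rho of -0.42 across members and -0.25 across 10755 genes, all read from the same 4 libraries. The part of the mitochondrial share and of gene length in these values was not tested.

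**Figure D2:**
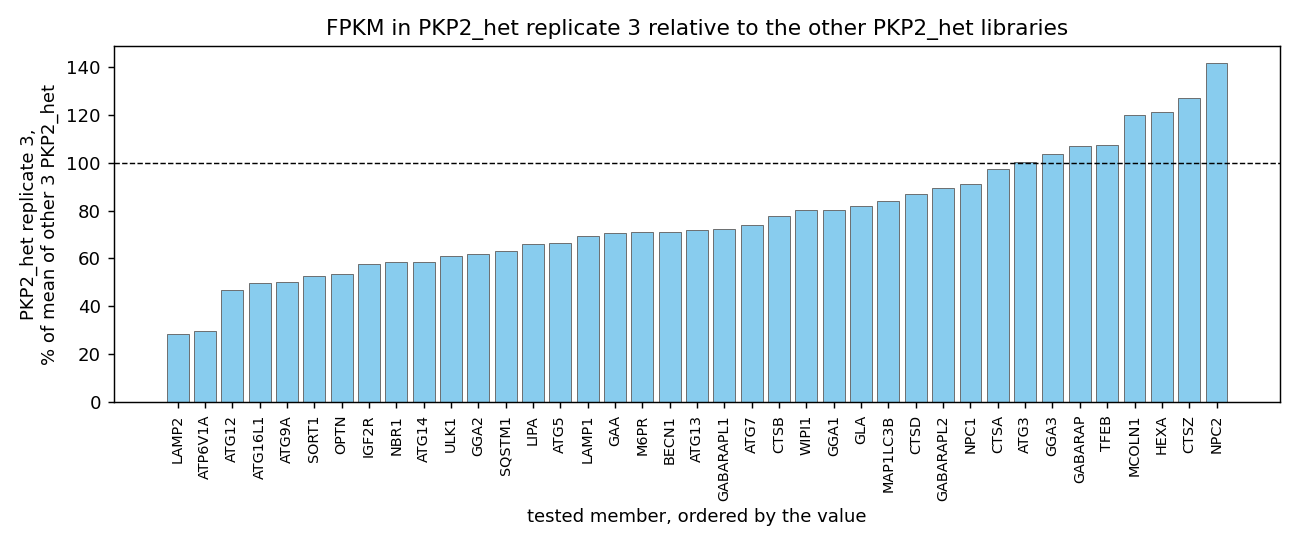
FPKM in PKP2_het replicate 3 as a percentage of the mean of the other 3 PKP2_het libraries for the 39 tested members, ordered by that percentage, with a dashed line at 100%. LAMP2 and ATP6V1A lie lowest at 28.5% and 29.6%, and 31 of the 39 bars end below the line.

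The GGA adaptors gave the called difference among the members. These proteins are recruited to the trans-Golgi network by ARF GTPases, bind the tails of mannose 6-phosphate receptors and sortilin, and bring in clathrin. GGA1 (gene 100623753) stood at 15.5, 21.3, 15.0 and 20.2 FPKM in WT and at 4.25, 4.96, 3.61 and 4.27 FPKM in PKP2_het. All 4 PKP2_het libraries were low and close together, far below the lowest WT library. In fragments these values rest on 3640 to 7008 per WT library and 929 to 1574 per PKP2_het library. The means were 18.0 ± 3.23 and 4.27 ± 0.551 FPKM (SD, n = 4), a 4.22-fold lower level, and the log2 fold change was -1.84 ± 0.14 (SE; limma adjusted p = 0.000146). GGA1 was called in all 13 alternative settings tried, with log2 fold changes from -2.07 to -1.76 and limma adjusted p up to 0.00264.

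Neither of the other GGA genes was called. GGA2 was at 19.1, 23.0, 23.5 and 21.2 FPKM in WT and at 25.8, 25.6, 16.2 and 27.2 FPKM in PKP2_het. PKP2_het replicate 3 was the lowest of the 8 for GGA2 and the other 3 PKP2_het libraries were above every WT library. Its log2 fold change was 0.099 with a 95% interval from -0.27 to 0.47 (limma adjusted p = 0.821), and 0.26 without that library (limma adjusted p = 0.200). GGA3 was at 4.42, 4.47, 3.75 and 4.30 FPKM in WT and at 3.96, 4.55, 4.44 and 4.35 FPKM in PKP2_het. These groups overlapped, and the log2 fold change was 0.026 with a 95% interval from -0.18 to 0.23 (limma adjusted p = 0.925), or 0.016 without PKP2_het replicate 3. With libraries rescaled to equal FPKM sums, a setting in which all genes tested had a median of -0.23, GGA2 and GGA3 had negative log2 fold changes of -0.15 and -0.19.

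The ratios between the adaptors, computed after the GGA1 values were seen, put the contrast within each library. The log2 ratio of GGA1 to GGA2 ran from -0.64 to -0.070 in WT and from -2.67 to -2.16 in PKP2_het. For GGA1 to GGA3 it ran from 1.81 to 2.26 in WT and from -0.30 to 0.13 in PKP2_het. Since the ratios were formed for the GGA1 difference they are given as a description, with no test. GGA1 made up 35.6% to 44.2% of the summed GGA level in WT and 11.9% to 14.9% in PKP2_het. That sum was at 39.0 to 48.8 FPKM in WT and 24.2 to 35.8 FPKM in PKP2_het.

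On the minus strand of chromosome 5 (Sscrofa11.1) the GGA1 model spans 10186132 to 10213830, 31.2 Mb from PKP2 on the same chromosome. With no litter or ancestry in the labels, an effect of the knockout and one of linked or other inherited differences cannot be told apart. The deposited gene length of GGA1 is 10763 bases, against 3106 for GGA2 and 6287 for GGA3, and RefSeq lists 4 transcripts for the gene. The table does not separate transcripts, so which part of the model carries the difference was not tested. SH3BP1, a gene on the same strand, overlaps the GGA1 model by 1752 bases and stood at 0.302 to 0.835 FPKM over all 8 libraries. Fragments in that overlap cannot be assigned to 1 of the genes.

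Of the 6 nearest tested genes, 3 on either side, 0 were called by limma, beside 1.86% of all genes tested. Nearest on the side of lower coordinates was LGALS1 (galectin 1), 33.6 kb away, at 531, 503, 490 and 420.5 FPKM in WT and 357, 327, 477 and 268 FPKM in PKP2_het. Its log2 fold change was -0.47 (limma adjusted p = 0.312), or -0.62 without PKP2_het replicate 3 (limma adjusted p = 0.0539). On the other side CDC42EP1, a CDC42 effector 30.8 kb away, had -0.37 (0.350), or -0.44 (0.180) without that library, in the same terms. MFNG, which lies 106 kb away and encodes a glycosyltransferase that modifies Notch receptors, was the 1 neighbour whose groups did not overlap. It stood at 3.93 to 7.21 FPKM in WT and 8.07 to 19.0 FPKM in PKP2_het. Over all genes tested 9.19% did not overlap, 4.86% with PKP2_het higher. The log2 fold change of MFNG was 0.97, opposite in sign to that of GGA1 (limma adjusted p = 0.103). Without PKP2_het replicate 3 it was 0.74 (limma adjusted p = 0.0698). NOL12, CARD10 and TRIOBP had log2 fold changes of -0.37, 0.034 and 0.11, the last 2 moving to -0.19 and 0.026 without PKP2_het replicate 3. The signs of the 6 estimates were mixed. All were smaller in size than that of GGA1, which was likely beforehand, since the genes were picked by position around a called gene. Whether the difference is confined to GGA1 was not tested.

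**Figure D3:**
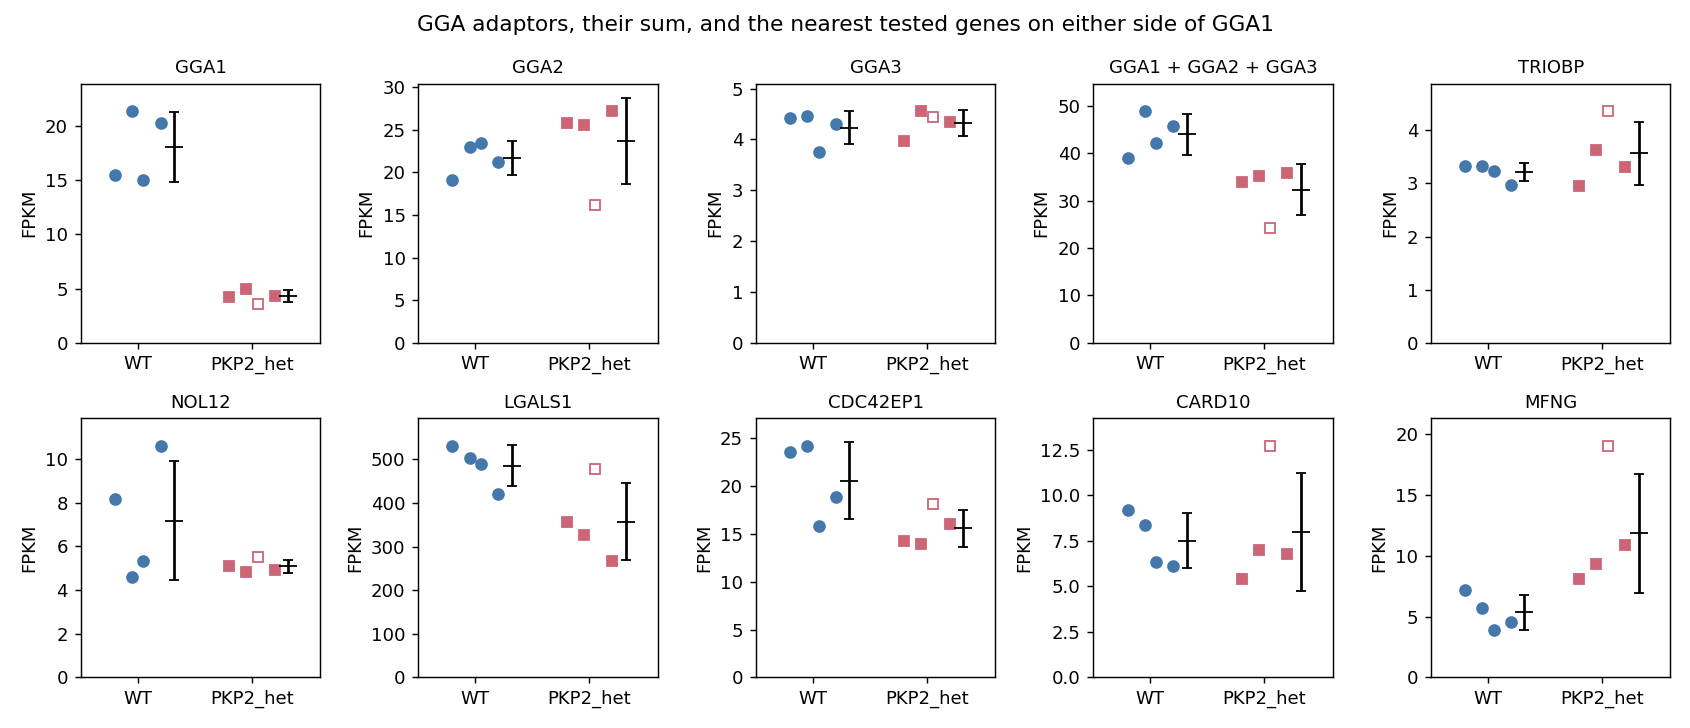
FPKM of the 3 GGA genes, of their sum and of the 6 tested genes nearest to GGA1, each panel with its own linear axis from 0; circles are WT, squares PKP2_het (open for replicate 3), and the bars give mean ± SD of 4 libraries. The GGA1 groups are far apart (18.0 against 4.27 FPKM), whereas GGA2, GGA3 and 5 of the 6 neighbours overlap between groups.

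The cargo that GGA adaptors carry was next examined through its sorting receptors, of which 0 of 3 were called. Since 1.86% of all genes tested were called, 0 calls in so small a group, here and below, says little about the group. IGF2R, the cation-independent mannose 6-phosphate receptor that also clears insulin-like growth factor 2, was at 12.8, 14.8, 12.2 and 14.4 FPKM in WT and at 9.64, 9.22, 6.40 and 14.5 FPKM in PKP2_het. Of the PKP2_het libraries 3 were below all WT libraries, and replicate 4 was among the highest. The log2 fold change was -0.45 ± 0.20 (SE; limma adjusted p = 0.372), or -0.28 without PKP2_het replicate 3. SORT1 (sortilin) was at 7.33, 6.99, 6.42 and 8.70 FPKM in WT and at 7.79, 7.68, 3.90 and 6.67 FPKM in PKP2_het. Those groups overlapped, and the log2 fold change went from -0.18 to 0.0083 when PKP2_het replicate 3 was left out. M6PR, the cation-dependent mannose 6-phosphate receptor, had a log2 fold change of -0.055 with a 95% interval from -0.35 to 0.24, or 0.059 without that library.

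Genes that start the autophagosome showed no call among 6, beside 1.86% of all genes tested. ULK1, the initiating kinase, was at 9.11, 11.2, 8.23 and 11.0 FPKM in WT and at 8.06, 9.66, 5.73 and 10.4 FPKM in PKP2_het. BECN1 (beclin 1) was at 16.2, 17.4, 17.1 and 16.9 FPKM in WT and at 17.4, 16.3, 11.8 and 16.2 FPKM in PKP2_het. For both genes PKP2_het replicate 3 was the lowest library and the remaining libraries overlapped. The log2 fold changes were -0.22 and -0.13 (limma adjusted p = 0.643 and 0.691), and -0.067 and -0.020 without that library. ATG13, a partner of ULK1, ATG14, a partner of beclin 1, the lipid scramblase ATG9A and the phosphoinositide-binding WIPI1 lay between -0.21 and -0.012, and between -0.14 and 0.090 without it. With all libraries 6 of the 6 log2 fold changes were negative, and without PKP2_het replicate 3 it was 3 of 6. Over all genes tested it was 5846 and 5220 of 10757.

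In the ubiquitin-like conjugation machinery, 0 of 5 members were called, beside 1.86% of all genes tested. ATG3, the enzyme that transfers LC3 and GABARAP proteins to lipid, was at 13.3, 12.5, 12.5 and 11.8 FPKM in WT and at 11.5, 10.5, 10.7 and 10.1 FPKM in PKP2_het. Every PKP2_het library was below every WT library, by a small margin, and PKP2_het replicate 3 was not extreme at 100.5% of the other 3. The log2 fold change was -0.21 ± 0.092 (SE; limma adjusted p = 0.382). ATG16L1, which with ATG5 and ATG12 directs that transfer, was at 5.50, 7.95, 7.30 and 7.42 FPKM in WT and at 5.62, 5.55, 2.88 and 6.22 FPKM in PKP2_het. Here the groups overlapped through WT replicate 1, and the log2 fold change was -0.44 ± 0.20 (SE; limma adjusted p = 0.402), or -0.23 without PKP2_het replicate 3. ATG12 was at 5.29 FPKM in PKP2_het replicate 3 and at 10.3 to 12.3 FPKM in the other 7 libraries, and its log2 fold change was -0.25 with that library and -0.010 without it. ATG5 and ATG7, the latter an activating enzyme, had log2 fold changes of -0.076 and 0.045, or 0.029 and 0.11 without it.

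The LC3 and GABARAP proteins, which coat the autophagosome and bind cargo receptors, were among the most abundant members. Of these, 0 of 4 were called, beside 1.86% of all genes tested. GABARAP stood at 158, 155, 165 and 142 FPKM in WT and at 227, 176, 203 and 168 FPKM in PKP2_het. The lowest PKP2_het library was just above the highest WT library, 168 against 165 FPKM. The means were 155 ± 9.44 and 194 ± 26.6 FPKM (SD, n = 4), with a log2 fold change of 0.31 ± 0.13 (SE; limma adjusted p = 0.370). With libraries rescaled to equal FPKM sums, where the median of all genes was -0.23, GABARAP had 0.040. GABARAPL1 was at 101, 101, 94.2 and 119.9 FPKM in WT and at 140.5, 122, 91.1 and 116 FPKM in PKP2_het, with overlap and a log2 fold change of 0.16, or 0.28 without PKP2_het replicate 3. GABARAPL2 and MAP1LC3B (LC3B) had log2 fold changes of -0.085 and -0.022, with 95% intervals from -0.38 to 0.21 and from -0.29 to 0.24. Without that library they were -0.046 and 0.039.

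Cargo receptors link ubiquitinated proteins and organelles to LC3, and 0 of 3 were called, beside 1.86% of all genes tested. SQSTM1, whose protein is itself degraded by autophagy, was at 118, 134, 110.1 and 167 FPKM in WT and at 146, 131, 85.6 and 129 FPKM in PKP2_het. NBR1 was at 21.7, 22.1, 22.4 and 25.9 FPKM in WT and at 22.9, 22.5, 13.3 and 22.9 FPKM in PKP2_het. In both genes PKP2_het replicate 3 was the lowest library and the others overlapped. The log2 fold changes were -0.11 for SQSTM1 and -0.20 for NBR1 (limma adjusted p = 0.824 and 0.678), and 0.049 and -0.013 without that library. OPTN (optineurin), a receptor for damaged mitochondria and bacteria, had 0.030, or 0.25 without it.

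TFEB, the transcription factor that activates many lysosomal and autophagy genes, was at 14.7, 15.7, 15.0 and 14.1 FPKM in WT and at 15.9, 18.1, 17.8 and 15.6 FPKM in PKP2_het. The groups overlapped, since PKP2_het replicate 4 was below WT replicate 2. Its log2 fold change was 0.17 with a 95% interval from -0.055 to 0.39 (limma adjusted p = 0.536).

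Among lysosomal membrane and acidification genes, 0 of 5 were called, beside 1.86% of all genes tested. PKP2_het replicate 3 was the lowest library for LAMP1, LAMP2 and ATP6V1A. LAMP2, a membrane glycoprotein needed for autophagosome clearance in heart muscle, was at 14.9, 17.2, 18.9 and 15.3 FPKM in WT and at 21.9, 23.8, 6.34 and 21.1 FPKM in PKP2_het. The PKP2_het libraries other than replicate 3 were above all WT libraries, and replicate 3 was below all of them. With all libraries the log2 fold change was -0.0061 ± 0.35 (SE; limma adjusted p = 0.996), and without replicate 3 it was 0.41 (limma adjusted p = 0.0818). ATP6V1A, the catalytic subunit of the proton pump, was at 6.63, 6.90, 7.07 and 6.13 FPKM in WT and at 5.23, 6.49, 1.77 and 6.19 FPKM in PKP2_het. Replicate 3 again lay far below the rest, and the log2 fold change moved from -0.47 to -0.14 when it was left out. LAMP1, another abundant membrane glycoprotein, was at 58.5, 62.8, 59.0 and 64.4 FPKM in WT and at 60.4, 58.7, 41.2 and 59.4 FPKM in PKP2_het. Its groups overlapped, with a log2 fold change of -0.17, or -0.039 without replicate 3. NPC1 and the calcium channel MCOLN1 had log2 fold changes of 0.017 and 0.031, with 95% intervals from -0.19 to 0.22 and from -0.21 to 0.27, and 0.040 and -0.025 without replicate 3.

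LAMP2 and GLA lie on chromosome X, and the labels give no sex. Of 8 sex-linked genes looked for by symbol, 1 was found. That gene, EIF1AY, annotated on chromosome Y, stood at 19.8 to 25.2 FPKM in WT and 18.8 to 30.6 FPKM in PKP2_het. The sex of the animals was not read from this 1 gene.

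Cathepsins are the main lysosomal proteases. CTSZ (cathepsin Z) was at 52.4, 48.0, 48.4 and 50.8 FPKM in WT and at 69.6, 62.7, 80.6 and 58.1 FPKM in PKP2_het. Every PKP2_het library was above every WT library, and replicate 3 was the highest of all. The means were 49.9 ± 2.07 and 67.8 ± 9.79 FPKM (SD, n = 4). The log2 fold change was 0.42 ± 0.13 (SE), or 0.16 with equal FPKM sums, where the median of all genes was -0.23. After adjustment over all genes CTSZ did not pass (limma adjusted p = 0.166, or 0.102 without replicate 3). CTSB was at 66.0, 94.7, 97.0 and 78.3 FPKM in WT and at 83.9, 78.7, 60.2 and 70.1 FPKM in PKP2_het, with overlap and a log2 fold change of -0.19, or -0.10 without replicate 3. CTSD and CTSA, the latter a carboxypeptidase that protects other enzymes, had log2 fold changes of -0.11 each, or -0.057 and -0.10 without it. Thus 0 of 4 tested cathepsins were called, beside 1.86% of all genes tested.

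The row named CTSL rested on only 1 to 30 fragments per library and was not tested. It may not be the main cathepsin L gene of the pig. The row named CTSV, examined after its values were seen, carries the protein annotation of pig procathepsin L. It stood at 28.2, 27.5, 22.8 and 22.1 FPKM in WT and at 45.7, 35.3, 33.0 and 25.1 FPKM in PKP2_het. PKP2_het replicate 4 lay within the WT range and the other 3 above it, with a log2 fold change of 0.43 (limma adjusted p = 0.342).

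Other lumenal enzymes and lipid-binding proteins gave 0 calls among 5, beside 1.86% of all genes tested. GLA, the alpha-galactosidase that removes galactose from glycolipids, was at 2.32, 1.79, 1.97 and 1.54 FPKM in WT and at 2.67, 2.68, 2.16 and 2.54 FPKM in PKP2_het. Only PKP2_het replicate 3 fell within the WT range. The log2 fold change was 0.28 ± 0.11 (SE; limma adjusted p = 0.304), or 0.12 with equal FPKM sums, where the median of all genes was -0.23. GAA, which breaks down glycogen in the lysosome, was at 14.9, 20.5, 17.0 and 21.6 FPKM in WT and at 14.6, 17.4, 11.5 and 16.7 FPKM in PKP2_het. These values overlapped, with a log2 fold change of -0.28 (limma adjusted p = 0.521), or -0.17 without PKP2_het replicate 3. The ganglioside hydrolase HEXA, the acid lipase LIPA and the cholesterol-binding NPC2 had log2 fold changes of -0.12, -0.17 and -0.048, or -0.19, -0.050 and -0.17 without it. NPC2 and HEXA were high rather than low in PKP2_het replicate 3, at 142% and 121% of the other PKP2_het libraries.

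**Figure D4:**
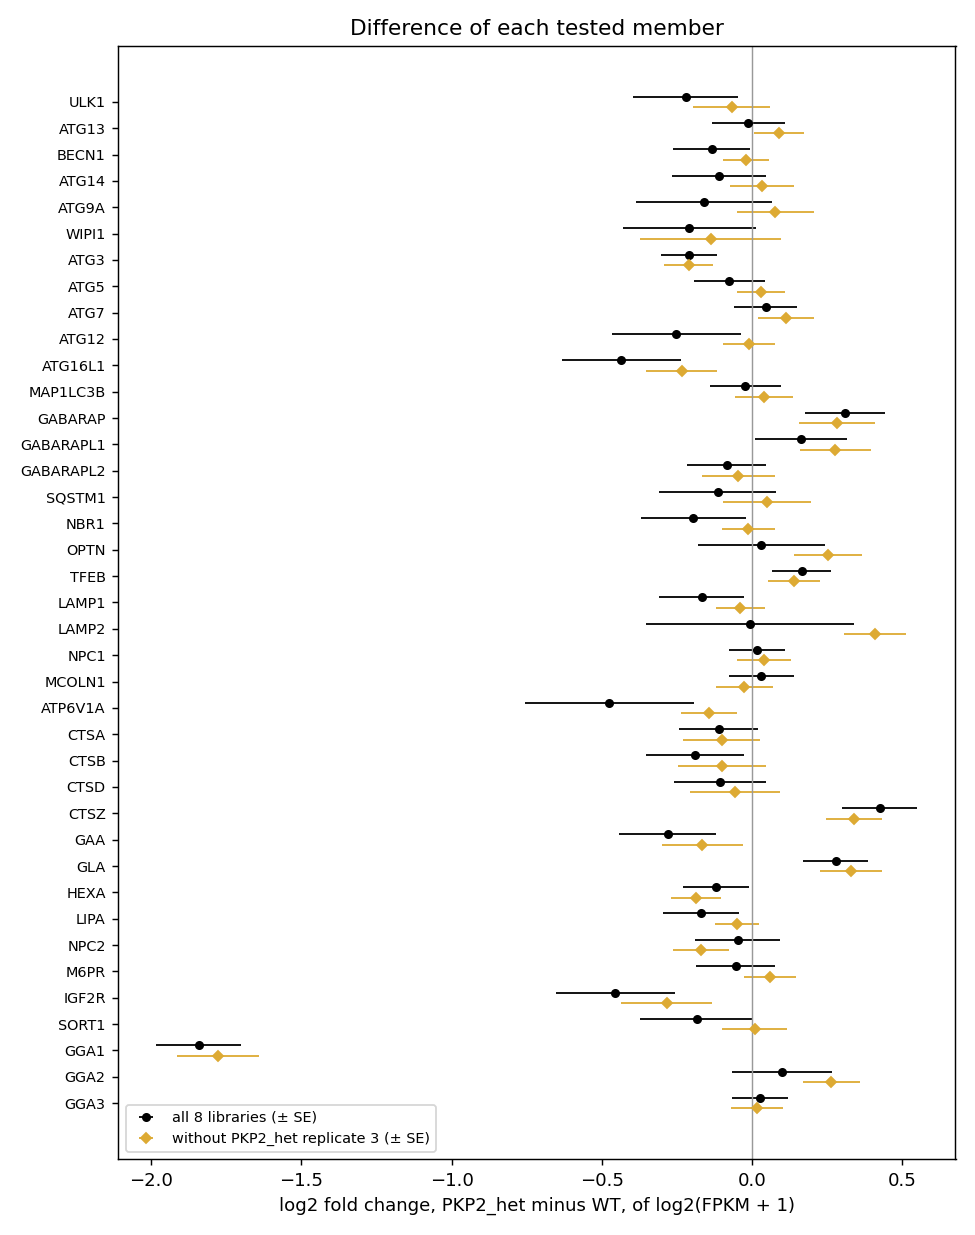
Log2 fold change (PKP2_het minus WT, on the log2(FPKM + 1) scale) of the 39 tested members with its standard error, for all 8 libraries (circles) and without PKP2_het replicate 3 (diamonds). GGA1 stands at -1.84 and -1.78, and every other member lies between -0.47 and 0.42 with all libraries.

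Around these members, 155 further genes of autophagy, nutrient sensing, lysosomal enzymes, membrane proteins, the proton pump and sorting were read from the same fit. Of the 153 found, 144 were tested, 1 was called higher, beside 1.15% of all genes, and 0 lower, beside 0.707%. The median log2 fold change was -0.081, beside -0.022 over all genes, and without PKP2_het replicate 3 it was -0.030, beside 0.0067. The called gene was GM2A, the activator protein that presents GM2 ganglioside to hexosaminidase. It rose from 5.13, 6.17, 6.60 and 5.85 FPKM in WT to 9.59, 10.3, 9.36 and 7.88 FPKM in PKP2_het. No libraries overlapped, and the log2 fold change was 0.57 ± 0.11 (SE; limma adjusted p = 0.0381). GM2A lost its call without the low-value filter (limma adjusted p = 0.0524), with the replicate block (0.135), after equal-sum rescaling (0.732) and in 6 of the 8 fits that left out 1 library (up to 0.128).

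PSAP, which encodes the precursor of the saposins, another set of activators of sphingolipid breakdown, was named after its values were seen. It was at 192, 221, 236 and 237 FPKM in WT and at 152, 156, 107 and 174 FPKM in PKP2_het. All PKP2_het libraries were below all WT libraries, as for 4.33% of all genes tested, and opposite in direction to GM2A. The log2 fold change was -0.60 ± 0.17 (SE). PSAP did not pass the adjustment over all genes (limma adjusted p = 0.135). Without PKP2_het replicate 3 its log2 fold change was -0.46 (limma adjusted p = 0.0759).

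**Figure D5:**
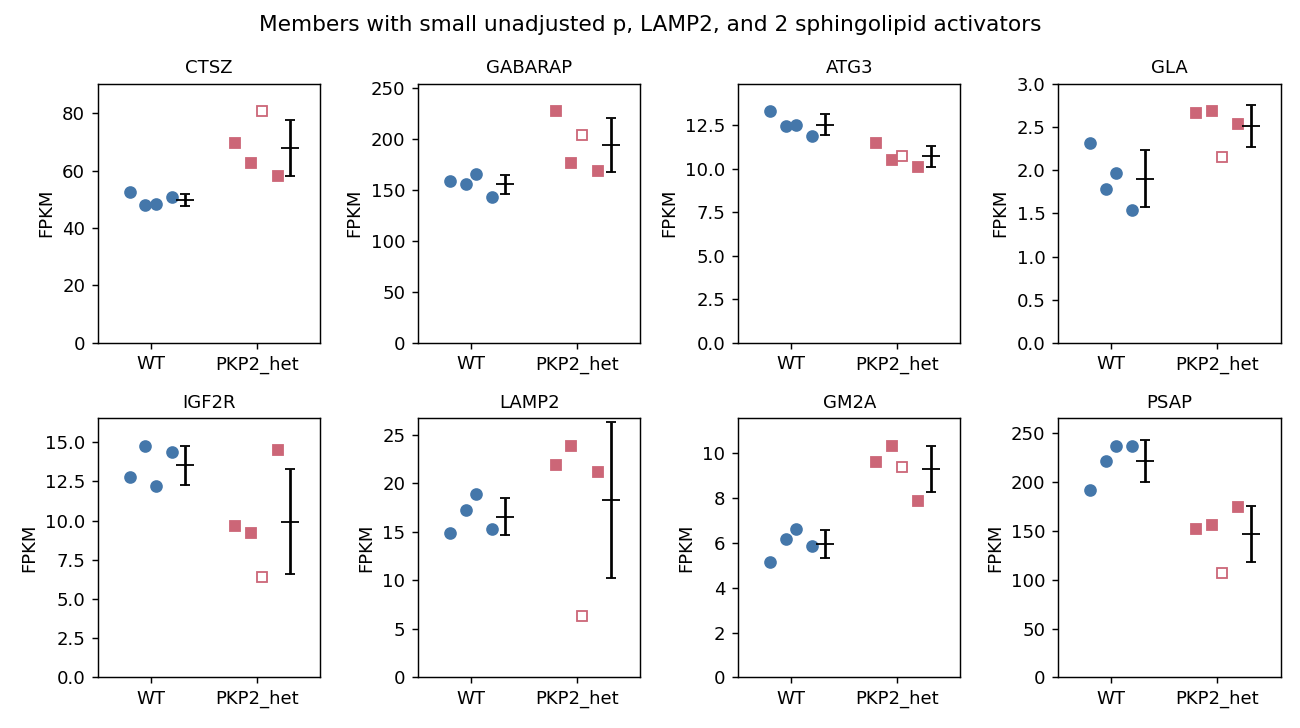
FPKM of 8 genes named in the text, each panel with its own linear axis from 0; circles are WT, squares PKP2_het (open for replicate 3), and the bars give mean ± SD of 4 libraries. CTSZ, GABARAP, GM2A, ATG3 and PSAP do not overlap between groups, and for LAMP2 the open square at 6.34 FPKM lies below all other points.

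By list, 0 of 27 further autophagy genes were called, beside 1.86% of all genes tested, which holds for each list below. ATG4B, a protease that primes LC3, had the smallest p at a log2 fold change of -0.19 (limma adjusted p = 0.412). Among 21 nutrient-sensing genes and TFEB relatives 0 were called, with LAMTOR5, a subunit of the Ragulator complex, at 0.37 (0.153), in the same terms. Among 16 proton pump subunits 0 were called, with TCIRG1 at -0.43 (0.359), or -0.60 without PKP2_het replicate 3 (0.0526). Among 12 further membrane proteins 0 were called, with the tetraspanin CD63 at 0.21 (0.530). The sorting list, which holds the AP-1 and AP-3 adaptors, clathrin and retromer, had 0 of 35 called. Of its log2 fold changes 28 were negative, with a median of -0.11, and without PKP2_het replicate 3 it was 23, with a median of -0.046. Over all genes tested 5846 and 5220 of 10757 were negative in these fits, with medians of -0.022 and 0.0067. The retromer subunit VPS26A had the smallest p of that list at -0.34 (limma adjusted p = 0.215).

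Macrophages are rich in lysosomes, so their markers were set beside these results. The summed level of 13 macrophage markers was 44.2 to 60.1 FPKM in WT and 24.3 to 66.2 FPKM in PKP2_het, with C1QC, a complement subunit, at 4.96 to 17.2 FPKM over the 8 libraries. Of the 10 markers tested 0 were called, beside 1.86% of all genes tested. The log2 fold changes of all 10 were negative (median -0.15, or -0.25 without PKP2_het replicate 3). The endothelial sum was 251 to 495 FPKM in WT and 210.0 to 430 FPKM in PKP2_het. Of its 8 markers 0 were called, although the log2 fold changes of all 8 were negative (median -0.29, or -0.45 without that library). Over all genes tested 5846 of 10757 were negative (median -0.022), or 5220 without that library (median 0.0067). Fibroblast markers summed to 237 to 313 FPKM in WT and 211 to 474 FPKM in PKP2_het, and those of smooth muscle and pericytes to 236 to 403 and 216 to 403 FPKM. Lymphocyte markers summed to at most 5.98 FPKM in any library. The adipocyte sum, mostly FABP4, varied from 11.4 to 179 FPKM between single WT libraries, and the erythroid sum from 52.3 to 514 FPKM. In tissue libraries fewer cells of a type and less RNA per cell cannot be told apart. The part of cell composition in the GGA1, CTSZ or GM2A values was not tested.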

How the data were processed

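RNA of 4 PKP2_het and 4 WT libraries was sequenced, per the labels' protocols. HISAT2 2.0.5 is listed in the submitters' processing notes. How fragments were counted is not given in the sources used here. For 30550 genes the authors deposited FPKM values. Multiplied by gene length, 100% of them came out as whole fragments, within 0.01, on 1 scale per library. Log2(FPKM + 1) was fitted in limma 3.58.1 (R 4.3.3, with trend) for the 10757 genes reaching 1 FPKM in 4 or more libraries. P-values were two-sided and adjusted over all these genes by Benjamini-Hochberg, with a threshold of 0.05; such fold changes understate those of low genes. The PKP2 level was compared by exact permutation in scipy 1.17.1. Positions and chromosome names are from the table and RefSeq's Sscrofa11.1, which gave all 40 members the same start and end. The members, lists and tests were chosen with earlier results of these data known. Genes described in full were the called members, the 2 with the smallest p of each role, the GGA genes, the called gene or smallest p of each further list, the top marker of a cell type, and the 3 nearest tested genes on either side of a called member; others were named after their values were seen. Of 223 other list entries 12 matched no symbol. The promoter motif search that had been planned was not run, since it needs sequence not used here. Alternatives covered the pseudocount (0.1), the filter, a replicate block, equal FPKM sums, voom on the recovered fragments (added after seeing the data) and leaving out each library. Some genes of these lists are not reported here.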

Additional observations from a re-analysis of the deposited data

Results flagged for a closer look

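For each of the 40 members, the highest and the lowest library of PKP2_het and of WT were tested for their distance from the other 3 by Dixon's criterion (95%). Among independent groups about 1 in 20 would hold such a library by chance. The members share the same libraries, so no excess can be read from a count over them. Of these 80 groups of 4, 8 held such a library. PKP2_het replicate 3 was the lowest library in 7 of them: ATG9A at 15.8 FPKM (30.0 to 32.5 in the other 3), ATG12 at 5.29 FPKM (10.7 to 11.6), NBR1 at 13.3 FPKM (22.5 to 22.9), LAMP1 at 41.2 FPKM (58.7 to 60.4), LAMP2 at 6.34 FPKM (21.1 to 23.8), LIPA at 3.39 FPKM (4.96 to 5.26) and GGA2 at 16.2 FPKM (25.6 to 27.2). The remaining one was NBR1 in WT replicate 4, the highest at 25.9 FPKM (21.7 to 22.4 in the other WT libraries).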

How the results depend on the processing

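GGA1 was called lower, and no other member was called, under each of the 13 alternatives run. The FPKM sum was 1.0573e+06 in PKP2_het replicate 3 and 472019 to 728353 in the other libraries. Their mitochondrial shares of fragments were 52.1% and 21.1% to 37.6%. Dividing by this sum left 9168 of the 10757 genes tested with a negative log2 fold change. Rescaling to equal FPKM sums gave 50 genes called higher and 45 lower, 3 members with a positive log2 fold change and a member median of -0.37, beside -0.23 over all genes. It turned 9 uncalled genes negative: ATG7 (-0.11), GABARAPL1 (-0.10), GGA2 (-0.15), GGA3 (-0.19), MCOLN1 (-0.20), NPC1 (-0.17), OPTN (-0.23), TFEB (-0.086) and CD63 (-0.055). Deviations from the group means had correlations of -0.39, 0.033, -0.23 and 0.20 between same-numbered PKP2_het and WT libraries. The largest correlation was between PKP2_het 3 and WT 1 (0.457). The labels do not say whether the numbers pair libraries, and these correlations cannot decide it, since a pairing need not show in them. The replicate block gave 66 genes higher and 39 lower. Leaving out 1 library gave 75 (without WT replicate 4) to 195 (without PKP2_het replicate 3) genes called higher and 40 to 119 lower, from the same 2 fits; without WT replicate 2 it was 77 and 42, and without PKP2_het replicate 1, 2 or 4 the lower calls were 44, 49 and 50. Members with a positive log2 fold change numbered 9 to 19 in these fits. Uncalled members whose sign changed in such a fit ranged as follows: ATG13 -0.072 to 0.090, ATG14 -0.22 to 0.033, ATG5 -0.14 to 0.029, ATG7 -0.020 to 0.11, ATG9A -0.27 to 0.077, GGA3 -0.020 to 0.060, LAMP2 -0.18 to 0.41, M6PR -0.14 to 0.059, MAP1LC3B -0.085 to 0.039, MCOLN1 -0.025 to 0.085, NPC1 -0.021 to 0.060, NPC2 -0.17 to 0.048, OPTN -0.077 to 0.25, SORT1 -0.27 to 0.0083 and SQSTM1 -0.20 to 0.049. The cause of these moves was not tested. The planned count models were not run; voom on the recovered fragments was run in their place. CTSL, with 1 to 30 fragments per library, fell below the filter on low values.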

Other observations

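GGA1 was 1 of 11 called genes among the 546 tested on chromosome 5 (2.01%), beside 1.86% of all genes tested. Among 33 further lysosomal enzymes and activators, 22 had a negative log2 fold change, beside 5846 of the 10757 genes tested. Before adjustment 8 of the 33 had a limma p under 0.05, beside 12.8% of all genes. Groups did not overlap for 2 with PKP2_het higher and 5 with it lower, beside 4.86% and 4.33%. The summed level of the 34 found, PSAP among them, was 593 to 656 FPKM in WT and 465 to 570 FPKM in PKP2_het. These are descriptions of 1 list, and no test was run over it. CTSF (cathepsin F) stood at 24.0 to 27.8 FPKM in WT and 31.3 to 39.4 FPKM in PKP2_het; its log2 fold change was 0.39 (limma adjusted p = 0.161). PPT1, an enzyme that removes fatty acids from proteins, stood at 14.1 to 15.5 FPKM in WT and 11.4 to 13.4 FPKM in PKP2_het; the log2 fold change was -0.25 (limma adjusted p = 0.299). CTSF and PPT1 were picked from the list with their values known.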
